A study of Arabidopsis thaliana with 4 samples.

Results

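The binding of KANADI1 (KAN1), a GARP-family transcription factor of Arabidopsis that promotes the identity of the lower (abaxial) leaf side, was described here at 44 genes of abscisic acid (ABA) signalling and metabolism. The genes were taken by their published function and locus identifier. This rule uses no measured value, but earlier results of these data were known when the list was drawn up. They encode 14 receptors, 9 type 2C protein phosphatases (PP2C), 3 SnRK2 kinases, 7 transcription factors, 7 enzymes of ABA synthesis and 4 enzymes of ABA breakdown. Chromatin immunoprecipitation and sequencing (ChIP-Seq) gave 2 KAN1-FLAG libraries from plants in the Columbia-0 background that carried 35S:FLAG-GR-KAN1, precipitated with anti-FLAG beads, and 2 control libraries labelled "KAN1 negative", from Columbia-0. The labels give input as the antibody of both controls, whereas the study's methods describe 1 control library of wild-type chromatin. All plants were grown for 10 days in liquid culture and received dexamethasone (DEX) for 45 min, which lets the fusion with the glucocorticoid receptor (GR) enter the nucleus. The 35S promoter drives the fusion throughout the plant, so binding was not measured at the natural level or in the natural cells of KAN1, and the chromatin came from whole plants with no single cell type. Transcript levels were not analysed here.

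Abscisic acid is a plant hormone of drought, seed dormancy and stomatal closure. In its presence the PYR/PYL receptors clamp the PP2C phosphatases, which otherwise hold the SnRK2 kinases inactive, and the released kinases phosphorylate bZIP factors of the ABF group and ion channels. The amount of the hormone is set by its synthesis from carotenoids, in which the NCED dioxygenases carry out the cleavage step, and by its hydroxylation by CYP707A enzymes.

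The deposited table lists 22103 regions on the 5 chromosomes from the authors' peak calling, with the reads of each library in every region. A gene was taken to lie beside a region where the region overlapped it or where it was the nearest gene on either side. For each KAN1-FLAG library, the reads were divided by the summed reads of both controls, and a region was called bound where the mean of both ratios was at least 3. A place in the table is not by itself enrichment, since the mean ratios ran from 0.317 to 16.3. Of the 44 genes, 39 lay beside 134 called regions, and 19 genes lay beside 30 bound regions. The ratios were not scaled for depth. In the called regions, KAN1-FLAG 1 held 2082943 reads, KAN1-FLAG 2 1036664, control 1 661648 and control 2 13441, and control 2 was empty in 13929 regions. The full depth of the libraries is unknown, and the controls could therefore not be set to the depth of the ChIP libraries. The study calls its KAN1-FLAG experiments independent, but neither the labels nor the methods say whether the 2 libraries came from separate cultures, so the SD between them may be technical.

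To show what the bound regions look like, the most enriched one with a site in its middle is given for each class where that middle lay outside exons, and PYL5 is added as the runner-up of the receptors. Capitals mark the letters of VGAATAW, the word reported for KAN1 (V stands for any base but T, W for A or T). Spelled out, it reads AGAATAA or AGAATAT where V is A, it reads CGAATAA or CGAATAT where V is C, and it reads GGAATAA or GGAATAT where V is G. A match on the other strand appears as its reverse complement, so that ATATTCC is GGAATAT and TTATTCC is GGAATAA. The middle 200 bp of 5 regions are given 5′ to 3′ on the strand of the gene, from the TAIR10 sequence. They lie upstream of PYL1 (chr5:18986382-18986581, minus strand), PYL5 (chr5:1608293-1608492, plus strand), ABI1 (chr4:13223677-13223876, minus strand) and NCED3 (chr3:4845393-4845592, minus strand), and downstream of SnRK2.6 (chr4:16276238-16276437, plus strand). All 5 windows are intergenic in the reference annotation.
PYL1: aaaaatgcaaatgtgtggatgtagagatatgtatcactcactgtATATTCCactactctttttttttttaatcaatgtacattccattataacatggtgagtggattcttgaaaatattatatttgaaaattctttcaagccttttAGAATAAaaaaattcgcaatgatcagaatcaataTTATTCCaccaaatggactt
PYL5: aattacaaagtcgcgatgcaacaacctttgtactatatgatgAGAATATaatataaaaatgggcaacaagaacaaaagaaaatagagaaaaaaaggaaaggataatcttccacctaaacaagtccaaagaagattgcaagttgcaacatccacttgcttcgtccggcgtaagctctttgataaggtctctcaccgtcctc
ABI1: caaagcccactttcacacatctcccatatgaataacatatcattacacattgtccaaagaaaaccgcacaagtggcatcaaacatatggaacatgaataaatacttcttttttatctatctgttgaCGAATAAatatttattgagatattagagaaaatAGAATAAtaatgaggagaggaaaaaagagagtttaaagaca
SnRK2.6: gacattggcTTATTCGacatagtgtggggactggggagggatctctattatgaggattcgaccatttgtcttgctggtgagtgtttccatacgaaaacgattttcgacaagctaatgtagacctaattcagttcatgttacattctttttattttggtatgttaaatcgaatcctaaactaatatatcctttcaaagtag
NCED3: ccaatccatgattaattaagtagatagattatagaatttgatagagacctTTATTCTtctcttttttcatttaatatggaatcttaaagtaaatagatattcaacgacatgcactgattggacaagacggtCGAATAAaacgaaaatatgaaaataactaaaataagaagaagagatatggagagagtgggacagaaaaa
The PYL1 window holds 3 sites, those of ABI1 and NCED3 hold 2 each, and those of PYL5 and SnRK2.6 hold 1 each.

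For the transcription factors and the breakdown enzymes, 29 bases around single sites are shown, read on the strand of the site. The first lies upstream of ABF3 (chr4:16295284-16295312, plus strand), where the site was 1 bp from the centre of the bound region. The other pair lies inside the CYP707A1 transcript, in an exon outside the coding sequence (chr4:10523562-10523590, plus strand, and chr4:10523642-10523670, minus strand).
ABF3: taaccttatcgAGAATAAaataatagtcg
CYP707A1, first site: actagagaagaAGAATAAataattctttc
CYP707A1, second site: atcccatttggGGAATATttttctaccaa

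KAN1-bound regions were found beside genes of every class of the pathway, though at the kinases beside 1 gene only. No kinase gene had one at a mean ratio of at least 4, or with a ratio of at least 3 in each replicate. The receptor genes PYL1 and PYL5 and the phosphatase gene ABI1 had the highest ratios. A bound region lay beside 19 of the 44 genes (43.2%), against 25.4% of the 22970 genes that the table places beside a called region. Since only genes beside a called region enter the latter share, the like share of the ABA genes is 48.7% of 39. With the region overlapping the gene or within 3 kb of it, the count was 15 genes (34.1% of 44, 38.5% of 39) against 22.2%. A ratio of at least 3 in each replicate was reached at 14 genes (31.8% of 44, 35.9% of 39) against 11.5%. Among regions the excess was smaller, since 30 of the 134 regions beside ABA genes were bound (22.4%) against 18.8% of all 22103 regions. With the same-numbered control for each ChIP library the shares were 35.1% against 36.7%. In that setting a region without reads in control 2 has no ratio and was counted as not bound. This was so for 87 of the 134 regions and 13929 of all 22103. These shares therefore largely follow where control 2 held a read and do not measure the excess. With the neighbours of the reference annotation the shares were 19.8% against 18.8%. The ABA genes lay in wider intergenic space, with a median of 2796 bp on both sides together against 1740 bp for all genes, and 3599 bp for the 19 genes with a bound region. They lay beside a median of 3 called regions per gene against 2 for all genes. The part of this wider space in the share of bound genes was not tested.

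By class, a bound region lay beside 6 of 14 receptors, 5 of 9 phosphatases, 1 of 3 kinases, 2 of 7 transcription factors, 3 of 7 synthesis enzymes and 2 of 4 breakdown enzymes. Of the regions called beside them, 12 of 34 were bound at the receptors (35.3%) and 8 of 25 at the phosphatases (32.0%), above the 18.8% of all regions. The other classes lay below that share. There, 1 of 7 regions was bound at the kinases (14.3%), 2 of 16 at the transcription factors (12.5%), 4 of 29 at the synthesis enzymes (13.8%) and 3 of 23 at the breakdown enzymes (13.0%). The classes are small and no test was made between them. Genes beside no called region were PYL7 (AT4G01026), PYL10 (AT4G27920), HAI3 (AT2G29380), NCED6 (AT3G24220) and ABA1 (AT5G67030).

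**Figure D1:**
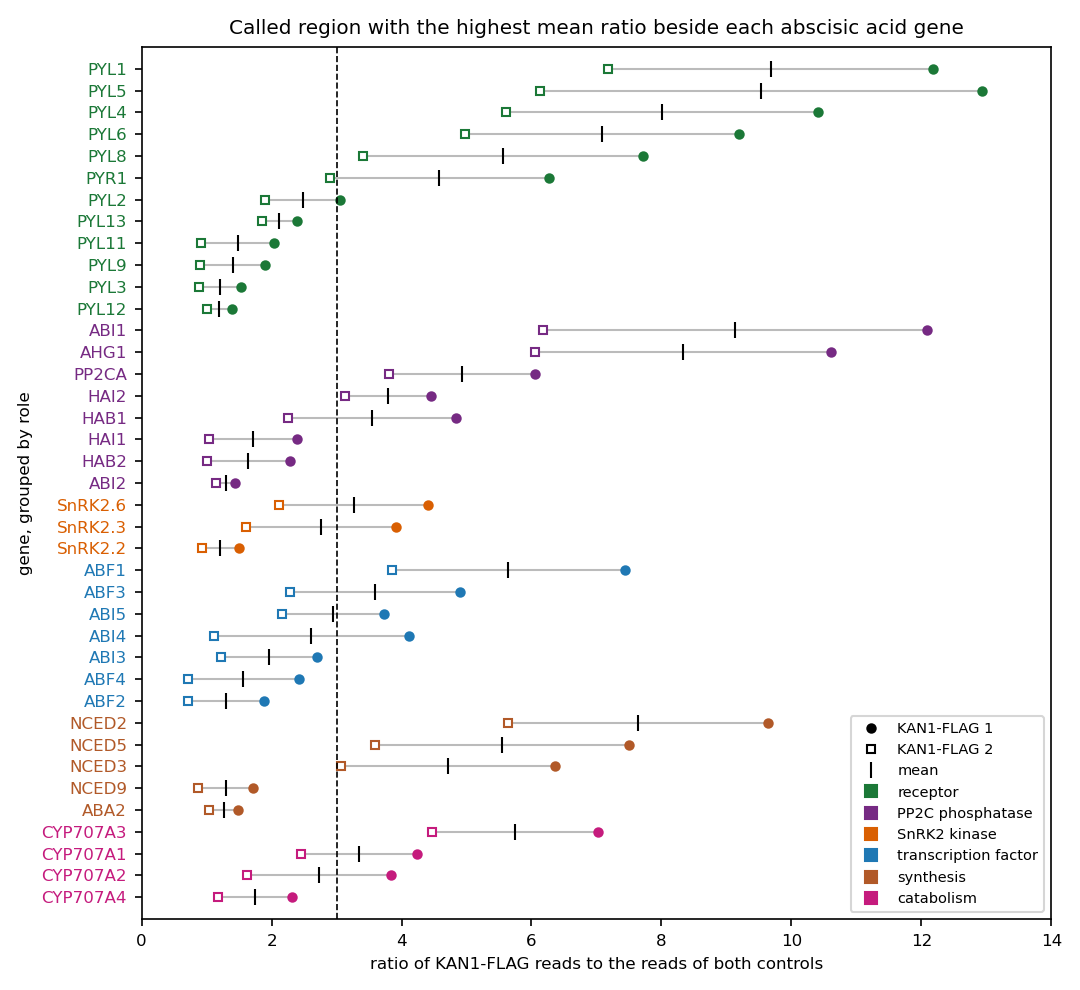
Ratio of KAN1-FLAG reads to the reads of both controls (horizontal axis) in the called region with the highest mean ratio beside each of 39 ABA genes (vertical axis, coloured by class). Filled circles are KAN1-FLAG 1, open squares KAN1-FLAG 2, black ticks the mean, and the dashed line is the threshold of 3; 19 genes have their mean at or above it, with PYL1 (9.68), PYL5 (9.53) and ABI1 (9.13) highest.

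The 30 bound regions beside ABA genes had a median mean ratio of 5.21, from 3.26 to 9.68, against a median of 4.07 over all 4166 bound regions, whose highest was 16.3. Both replicates reached 3 in 21 of them (70.0%), against 39.1% of all bound regions. The ratio was higher in KAN1-FLAG 1 (median 6.97, from 4.24 to 12.9) than in KAN1-FLAG 2 (median 3.49, from 2.11 to 7.18) in all 30, as it was in 4161 of all 4166 bound regions. Since both ratios of a region share one denominator and KAN1-FLAG 1 held more reads over the called regions, the SD of each ratio below contains this difference between both libraries. The authors' false discovery rate was at most 0.05 in KAN1-FLAG 1 for all 30 regions, and in KAN1-FLAG 2 for 18 of them (60.0%), against 29.7% of all bound regions. In KAN1-FLAG 2 this rate did not always follow the ratio to the summed controls. It was 0.25 in a region inside the gene HB6 with a ratio of 0.523, and 0.724 in one upstream of DTX50 with 3.25. KAN1-FLAG 2 held 56 reads in the first and 65 in the second, and control 2 held 0 and 3. The description of the deposited table sets replicate 2 beside control 2, which held only 13441 reads in the called regions. How far this rate rests on control 2 was not tested. The 30 regions also held more KAN1-FLAG 2 reads, with a median of 174 against 103 in all bound regions. The part of read number in the share of 60.0% was not tested.

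**Figure D2:**
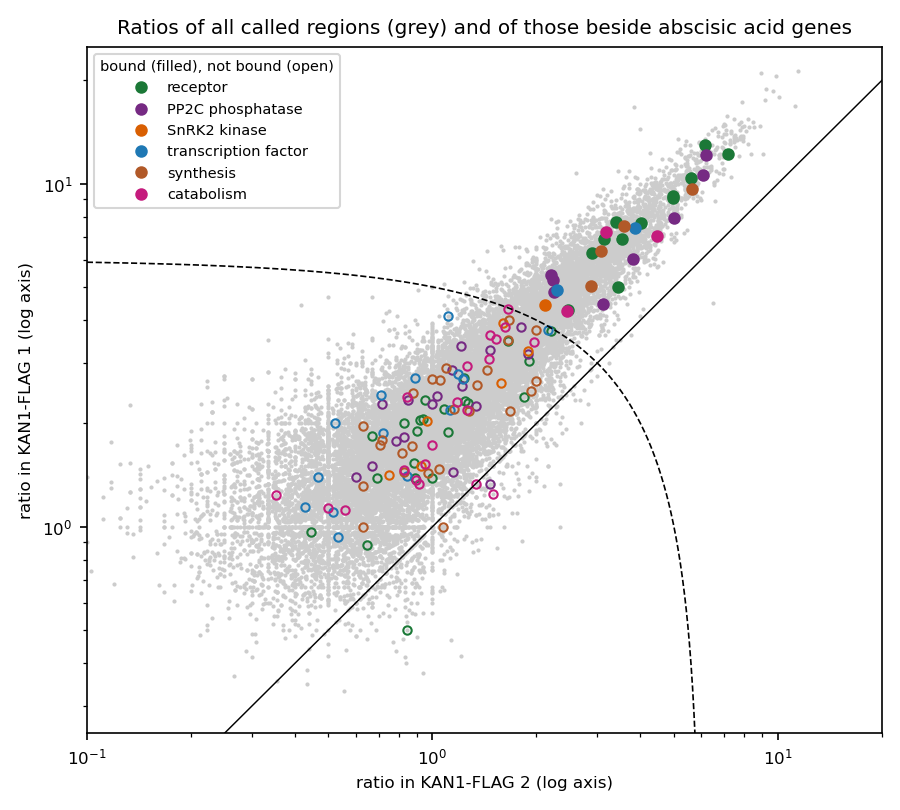
Ratio of ChIP to control reads in KAN1-FLAG 1 (vertical, log axis) against KAN1-FLAG 2 (horizontal, log axis) for called regions (grey; regions without reads in KAN1-FLAG 2 are not drawn) and for regions beside ABA genes (coloured by class, filled where bound). The solid line marks equal ratios and the dashed curve a mean ratio of 3; all 30 bound regions lie above the solid line.

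Among the receptors, all 6 genes with a bound region had exactly 2 of them. PYL1 (AT5G46790) had the highest ratio of all ABA genes, in the region of the first sequence above (chr5:18986291-18986673), 1722 bp upstream of the gene as the deposited table measures it from the region's centre. KAN1-FLAG 1 held 341 reads there and KAN1-FLAG 2 201, against 27 and 1 reads in the controls. Both ChIP libraries held several times the reads of the summed controls, with ratios of 12.2 (95% counting interval 8.28 to 18.6) and 7.18 (4.82 to 11.1) and a mean of 9.68 ± 3.54 (SD, n = 2), the 71st highest mean ratio of all 22103 regions. These exact Clopper-Pearson intervals cover counting error only. The region held 4 VGAATAW sites, and another gene, AT5G46795, was nearer, at 506 bp. A second PYL1 region, 1219 bp downstream (chr5:18982371-18982931), had 366 and 188 ChIP reads against 52 and 1 control reads and a mean ratio of 5.23 ± 2.37.

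PYL5 (AT5G05440) was flanked by bound regions on both sides. Upstream, at 857 bp (chr5:1608221-1608565), the ChIP libraries held 595 and 282 reads and the controls 46 and 0, a mean ratio of 9.53 ± 4.81 that ranked 76th of all regions, with the small gene AT5G05435 slightly nearer at 736 bp. Downstream, at 636 bp (chr5:1610887-1611279), they held 344.9 and 180.2 estimated reads against 44 and 1, a mean ratio of 5.84 ± 2.59. Each of these regions held 1 VGAATAW site.

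PYL4 (AT2G38310) carried both of its bound regions downstream, at 650 bp (chr2:16051621-16052017) and 1234 bp (chr2:16052217-16052588). The nearer one had 510 and 275 ChIP reads against 46 and 3 control reads and a mean ratio of 8.01 ± 3.39. The farther one, whose centre lies in an exon of the non-coding gene AT2G08950 in the reference annotation, had 382 and 208 against 41 and 1 and a mean ratio of 7.02 ± 2.93. PYL4 was the nearest gene to both in the deposited table, and both passed 3 in each replicate.

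PYL6 (AT2G40330), like PYL4 and PYL5 a receptor of the monomeric group, had a bound region on each side. The downstream one at 1191 bp (chr2:16843440-16843906) had 570 and 309 ChIP reads against 60 and 2 control reads and a mean ratio of 7.09 ± 2.98. The upstream one at 1091 bp (chr2:16846762-16847289) had 419 and 289 reads against 82 and 2, a mean ratio of 4.21 ± 1.09, and 4 VGAATAW sites. Each lay between PYL6 and another gene at a similar distance, TBL33 at 1390 bp and DREB2C, an AP2-type factor, at 1412 bp.

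PYL8 (AT5G53160), a receptor known for its role in root growth under ABA, had its bound regions 2457 and 1823 bp upstream. The first (chr5:21558012-21558510) had 417 and 184 ChIP reads against 53 and 1 control reads and a mean ratio of 5.56 ± 3.05. The second (chr5:21558781-21559008) was smaller, with 152 and 69 reads against 22 and 0 and a mean ratio of 5.02 ± 2.67. Neither held a VGAATAW site, and AT5G53150 was nearer to both.

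PYR1 (AT4G17870), the founding member of the receptor family, had the lowest top ratio of the 6. Its first region, 925 bp downstream (chr4:9930175-9930712), had 426 and 197 ChIP reads against 67 and 1 control reads. The ratio of 2.9 in KAN1-FLAG 2 stayed below 3, and the mean was 4.58 ± 2.38. The second, 2691 bp downstream (chr4:9932109-9932311), had 73 and 42 reads against 17 and 0, a mean of 3.38 ± 1.29, and lay nearer to MYC4, a factor of jasmonate signalling. PYL2 (AT2G26040), PYL3 (AT1G73000), PYL9 (AT1G01360), PYL11 (AT5G45860), PYL12 (AT5G45870) and PYL13 (AT4G18620) lay beside called regions that were not bound. The highest of these was 936 bp upstream of PYL2, with 128 and 80 ChIP reads against 42 and 0 and a mean ratio of 2.48 ± 0.81.

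Of the phosphatases, ABI1 (AT4G26080), a central co-receptor of the hormone, carried 3 bound regions in its upstream space, at 449, 1076 and 1492 bp. The farthest, shown above (chr4:13223592-13223961), had 604 and 309 ChIP reads against 46 and 4 control reads, ratios of 12.1 (9.04 to 16.5) and 6.18 (4.57 to 8.51) and a mean of 9.13 ± 4.17, which ranked 99th of all regions. RPS2, a disease resistance gene that starts in the opposite direction, was nearer to it, at 561 bp, and was also nearer to the middle region. The middle region (chr4:13223284-13223438) had 135 and 85 reads against 16 and 1 and a mean of 6.47 ± 2.08. The nearest (chr4:13222645-13222823) had 115 and 49 reads against 22 and 0 and a mean of 3.73 ± 2.12, with a ratio of 2.23 in KAN1-FLAG 2.

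AHG1 (AT5G51760), a phosphatase known from seeds, had 562 and 321 ChIP reads against 53 and 0 control reads in a region 580 bp downstream (chr5:21029541-21029997). Its ratios of 10.6 and 6.06 gave a mean of 8.33 ± 3.22, and the region's centre lies in an exon of the non-coding gene AT5G07815. PP2CA (AT3G11410), also called AHG3, had a region 1025 bp downstream (chr3:3582645-3583070) with 260 and 164 reads against 40 and 3 and a mean of 4.93 ± 1.58. A further PP2CA region, 3618 bp upstream and inside the non-coding gene AT3G11415 (chr3:3589307-3589511), had only 54 and 22 reads against 10 and 0, and its mean of 3.80 ± 2.26 rests on these few counts.

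HAI2 (AT1G07430), a phosphatase gene induced by the hormone, had 107 and 75 ChIP reads against 24 and 0 control reads in a region 2480 bp upstream (chr1:2285164-2285453). The mean ratio was 3.79 ± 0.94, with both replicates past 3, and AT1G07440 was nearer. HAB1 (AT1G72770) had 266 and 124 reads against 55 and 0 in a region at its 5′ end (chr1:27389775-27390234), which the table places 17 bp upstream and the reference annotation in an exon outside the coding sequence. Its mean ratio was 3.55 ± 1.83, with 2.25 in KAN1-FLAG 2, and it held 3 VGAATAW sites. The regions called beside ABI2 (AT5G57050), HAB2 (AT1G17550) and HAI1 (AT5G59220) were not bound, and the highest, at HAI1, reached 1.71 ± 0.97.

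**Figure D3:**
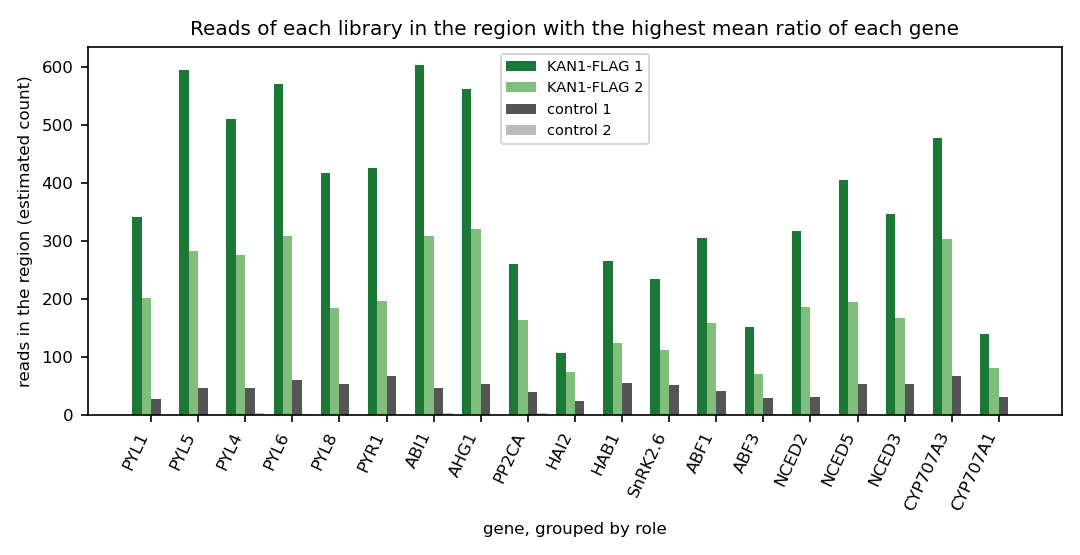
Reads (vertical axis, estimated counts) of the 4 libraries in the called region with the highest mean ratio of each of the 19 genes with a bound region (horizontal axis, grouped by class). KAN1-FLAG 1 exceeds KAN1-FLAG 2, and both exceed control 1, in every gene; control 2 holds from 0 to 4 reads.

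Only SnRK2.6 (AT4G33950), the kinase OST1 of guard cells, had a bound region among the 3 kinases. It lay 1527 bp downstream (chr4:16276139-16276536), with 234 and 112 ChIP reads against 52 and 1 control reads and a mean ratio of 3.26 ± 1.63. This is the lowest mean of the 30 bound regions, the ratio in KAN1-FLAG 2 was 2.11, and AT4G33960 was nearer. SnRK2.3 (AT5G66880) had a region 239 bp upstream that held 7 VGAATAW sites and had 286 and 117 reads against 69 and 4, a mean of 2.76 ± 1.64 that stayed below the threshold. SnRK2.2 (AT3G50500) reached 1.21 ± 0.41.

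Of the transcription factors, ABF1 (AT1G49720), a bZIP factor that binds ABA-response elements, had the most enriched region, 1104 bp upstream (chr1:18398776-18399199). It had 305 and 158 ChIP reads against 41 and 0 control reads, a mean ratio of 5.65 ± 2.54 and no VGAATAW site, and its centre lies in an exon of the non-coding gene AT1G07583. ABF3 (AT4G34000), of the same group, had 152 and 71 reads against 29 and 2 in a region 131 bp upstream (chr4:16295113-16295484) and a mean of 3.60 ± 1.85, with 2.29 in KAN1-FLAG 2. ABI5 (AT2G36270), which acts in seeds and seedlings, stayed just below the threshold, with 183 and 106 reads against 48 and 1 in an intron and a mean of 2.95 ± 1.11. The regions beside ABF2 (AT1G45249), ABF4 (AT3G19290), ABI3 (AT3G24650) and ABI4 (AT2G40220) were not bound, the highest of them at ABI4 with 2.61 ± 2.12.

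None of the 4 bound regions beside synthesis genes lay within 3 kb of the gene, and the same held for CYP707A3 of the breakdown enzymes. A closer region at the synthesis gene NCED5 stayed just below the threshold, as given below. Of the synthesis genes, NCED2 (AT4G18350) had the highest ratio, in a region 9159 bp upstream (chr4:10133293-10133689). It had 318 and 186 ChIP reads against 32 and 1 control reads and a mean of 7.64 ± 2.83. NCED5 (AT1G30100) had 405 and 194 reads against 54 and 0 in a region 8134 bp downstream (chr1:10581257-10581742) and a mean of 5.55 ± 2.76. AT4G18340 was much nearer to the first region, at 1429 bp, and NUDX25 to the second, at 235 bp.

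NCED3 (AT3G14440), the drought-induced member of the family, lay beside 11 called regions, the most of the 39 genes, of which 2 were bound. One, 11893 bp upstream (chr3:4845278-4845708), had 346 and 167 ChIP reads against 53.4 and 1 control reads, a mean of 4.72 ± 2.33 and 3 VGAATAW sites, and lay nearer to CID9. The other, 6463 bp upstream (chr3:4839807-4840319), had 281 and 161 reads against 53 and 3, a mean of 3.95 ± 1.52 and also 3 sites, and NCED3 was its nearest gene. At the remaining synthesis genes, the highest mean ratio was 1.30 ± 0.60 at NCED9 (AT1G78390), and ABA2 (AT1G52340) reached 1.26 ± 0.31.

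CYP707A3 (AT5G45340), one of the hydroxylases that inactivate the hormone, had its bound regions far upstream, at 5874 and 7892 bp. The farther one (chr5:18378620-18379147) had 478 and 304 ChIP reads against 67 and 1 control reads and a mean ratio of 5.75 ± 1.81. The nearer one (chr5:18376645-18377087) had 346 and 153 reads against 45 and 3 and a mean of 5.20 ± 2.84, and AT5G45350 was the nearer gene of both. CYP707A1 (AT4G19230) had the only bound region that the deposited table places inside an ABA gene (chr4:10523465-10523753). It lay near the 3′ end, in an exon outside the coding sequence in the reference annotation. It had 140 and 81 reads against 32 and 1, a mean of 3.35 ± 1.26 and the 2 sites shown above. CYP707A2 (AT2G29090) reached 2.73 ± 1.56 and CYP707A4 (AT3G19270) 1.74 ± 0.80, both below the threshold.

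Several values lay close to the threshold on both sides. Just inside were SnRK2.6 (3.26), CYP707A1 (3.35) and the second PYR1 region (3.38). Just outside were a further CYP707A1 region 9365 bp upstream (2.99), the PYR1 region 3612 bp downstream (2.96), ABI5 (2.95) and a region 511 bp downstream of NCED5 (2.87). Whether the genes on both sides of the threshold differ in binding was not tested.

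**Figure D4:**
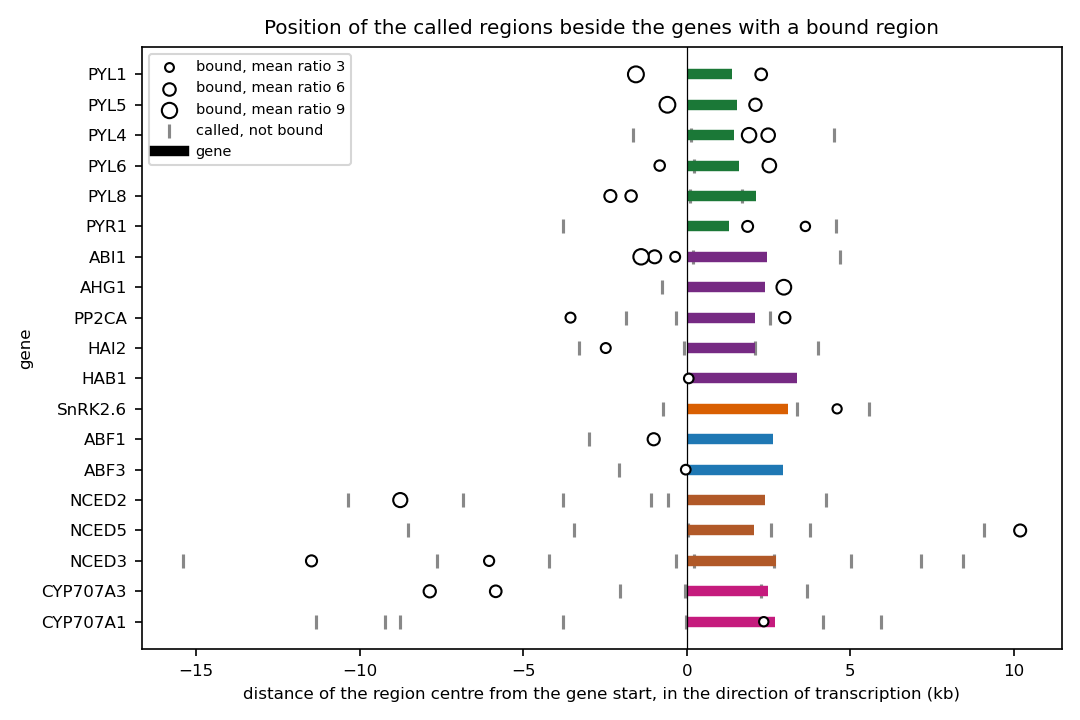
Distance of the centre of each called region from the gene start in the direction of transcription (horizontal axis, kb) for the 19 ABA genes with a bound region (vertical axis). Coloured bars are the genes in the reference annotation, whose ends can differ from those behind the deposited distances; circles are bound regions, sized by mean ratio, and grey ticks called regions that were not bound. The receptors and phosphatases carry their bound regions within 3 kb, on both sides, except for the PP2CA region 3618 bp upstream, while those of NCED2, NCED5, NCED3 and CYP707A3 lie far from the gene.

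By the deposited table, bound regions were found upstream of the ABA genes in 18 of 30 cases, downstream in 11 and inside in 1. The region lay within 3 kb of the gene or inside it in 23 cases (76.7%), close to the 77.2% of all 8863 pairs of a bound region and a gene beside it. Within 1 kb or inside were 9 (30.0%) against 40.0% of all pairs. Downstream and within 3 kb were 10 (33.3%) against 26.3%. The ABA gene was the nearest gene in 15 of the 30 cases (50.0%, against 47.3% of all pairs), so that for the other 15 another gene was closer to the region. Of the 19 genes with a bound region, 10 had 2 or more (52.6%), against 34.0% of all genes with a bound region. The mean number of bound regions per such gene was similar, 1.58 against 1.52. The highest mean ratio per gene had a median of 2.95 over the 39 ABA genes and 1.79 over all genes in the table. It is the highest of unequal numbers of called regions, with a median of 3 per ABA gene against 2. Over single called regions, the median mean ratio was 1.80 beside ABA genes against 1.62 for all regions.

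The VGAATAW word was present in 25 of the 30 bound regions beside ABA genes (83.3%), against 69.8% of all bound regions, 43.3% of the regions beside ABA genes that were not bound, and 47.7% of all called regions. The bound regions of ABA genes were longer, with a median of 397.5 bp against 354 bp for all bound regions, and in windows of one length, 300 bp at the region's midpoint, the shares were 66.7% and 65.5%, with 50.3% for all called regions. The higher share at ABA genes was therefore not seen at equal length. The 41 sites in the 30 regions were read as AGAATAT at 13, AGAATAA at 8, CGAATAA and GGAATAA at 6 each, GGAATAT at 5 and CGAATAT at 3. The core of the ABA-response element, ACGTG on either strand, was present in 9 of the 30 (30.0%), against 36.1% of all bound regions, 38.5% of the regions beside ABA genes that were not bound and 25.4% of all called regions. These shares were not computed at equal length. The unbound regions beside ABA genes and all called regions were shorter, with medians of 242.5 and 250 bp. ACGTG was found at PYL8, ABI1, HAB1, PP2CA, ABF3, NCED5 and CYP707A3. These are matches of letters, not shown sites of binding.

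Of 32 other genes of the ABA pathway, 29 lay beside a called region and 9 had a bound one (28.1% of 32, 31.0% of 29), against 25.4% of all genes. They were the transporter genes ABCG25 (AT1G71960) and DTX50 (AT5G52050), the glucosyltransferase gene UGT71B6 (AT3G21780), the kinase gene SnRK2.10 (AT1G60940), the NADPH oxidase genes RBOHD (AT5G47910) and RBOHF (AT1G64060), and the homeodomain factor genes HB6 (AT2G22430), HB7 (AT2G46680) and HB12 (AT3G61890). HB12 had the highest ratio, 3900 bp downstream, with 206 and 103 ChIP reads against 20 summed control reads and a mean of 7.73 ± 3.64, but CYP78A9 was nearer. SnRK2.10 followed with a region 193 bp upstream that had 464 and 239 reads against 56 and a mean of 6.28 ± 2.84. RBOHF had 3 bound regions inside the gene, the highest with 378 and 183.5 reads against 49 and a mean of 5.73 ± 2.81. None of the 8 downstream response genes on the list (RD29A, RD29B, RAB18, RD20, COR15A, KIN1, EM1 and EM6) had a bound region. Of these, 5 lay beside a called one, and the regions called beside RD29B were also called beside RD29A. The synthesis genes ABA3 and AAO3 and the bZIP factor genes AREB3, EEL and DPBF2 had no bound region either. These groups are small, and no test set them against the 25.4% of all genes.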

How the data were processed

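The authors mapped the reads to TAIR10, called regions and deposited, for each region, the estimated counts of reads per library, an adjusted p-value (false discovery rate) for either replicate, a log2 rank product over the replicates, the score that orders regions by it, and other columns on size and neighbouring genes. The false discovery rate was used only as a value of the caller, whose version is not given in the sources used here. The members and gene lists were chosen with earlier results of these data known. The named genes were every member with a bound region, those beside no called region, the highest unbound one of each class and the bound genes of the second list. All other genes of the first list, and unbound ones of the second, are named to account for them, and the values of ABI4, SnRK2.2, ABA2, CYP707A4 and the regions just below the threshold were added after they had been seen. Ratios, distances and words were computed in Python 3.11.15 (numpy 2.4.6, pandas 2.3.3, scipy 1.17.1, matplotlib 3.10.9), with steps tested on simulated data, and no significance test was made because the regions were called on this same contrast. Both controls were summed, so control 1 dominates the denominator. All 44 locus identifiers matched the reference annotation (TAIR10.1), and distances are those of the deposited table, measured from the region's centre. The table lacked the right-hand gene of 80 regions, 0 of them beside a member. Alternatives covered the threshold, control, added reads, scaling, replicates, distance, annotation and word. Sample columns left unused numbered 0.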

Additional observations from a re-analysis of the deposited data

How the results depend on the processing

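No paired analysis was possible because no result came from a test. The description of the deposited table gives each control with the same-numbered replicate, and ratios to that control are given here as an alternative. The 19 genes and 30 regions changed as follows. A mean ratio of at least 2 gave 25 genes (56.8% against 44.6% of all genes), 57 regions (42.5% against 38.0% of all regions) and 16 of the 32 genes of the second list. The mean of both controls, which makes every ratio 2 times as large, gave 30 genes, 87 regions (64.9% against 55.8% of all regions) and 23 genes of the second list, with 60.5% of all genes bound. The median ratio over member regions was then 3.59 in place of 1.80, against 3.25 over all regions. The same-numbered control, with ChIP 2 set against the nearly empty control 2, gave a ratio only where control 2 held reads. Regions without such reads, 87 of the 134 member regions and 13929 of all regions, were counted as not bound. This setting gave 25 genes (56.8% against 50.3% of all genes), 15 of them shared. ABF1, AHG1, HAB1 and NCED5 were lost, and control 2 was empty in their bound regions. There were 47 bound regions (35.1% against 36.7% of all regions) and 23 genes of the second list. The median was 26.0 against 19.9 over all regions, in each case over regions with reads in control 2 only. These shares therefore largely follow where control 2 held a read. Within 1 kb there were 8 genes, 9 regions and 5 genes of the second list, against 13.5% of all genes. The 9 regions were 14.5% of the 62 called regions within 1 kb of an ABA gene, below the 18.8% of all regions. The latter share covers any distance, and a like share within 1 kb was not computed. Asking as well for the caller's false discovery rate to be 0.05 or lower in each replicate left 18 regions (13.4% against 5.61% of all regions). It left 3 genes of the second list and 14 members (31.8% against 9.73% of all genes). As given above, in KAN1-FLAG 2 this rate did not always follow the ratio to the summed controls. Without KAN1-FLAG 1 or KAN1-FLAG 2, the members numbered 14 to 24, the regions 21 to 50, the median ratio 1.21 to 2.41 and the second list 6 to 12. The members were 31.8% against 11.5% of all genes without KAN1-FLAG 1, and 54.5% against 38.7% without KAN1-FLAG 2. The regions were 15.7% against 7.37% of all regions without KAN1-FLAG 1, and 37.3% against 31.8% without KAN1-FLAG 2. Over all regions, the median ratio was 1.09 without KAN1-FLAG 1 and 2.18 without KAN1-FLAG 2. Without KAN1-FLAG 1, ABF3, CYP707A1, HAB1, PYR1 and SnRK2.6 fell below 3, and without KAN1-FLAG 2, ABI4, ABI5, CYP707A2, PYL2 and SnRK2.3 rose past it. With 10 reads added, 15 genes were bound against 18.6% of all genes. The annotation of the reference gave 19 genes (43.2% against 25.1% of all genes), 18 of them shared, with PYL9 in place of PYL4. Leaving aside the same-numbered control, the share of the 44 genes was above that of all genes under each setting of threshold, control, reads, replicates, distance and annotation. These shares ran from 18.2% against 13.5% within 1 kb to 68.2% against 60.5% with the mean of both controls. Depth limits the ratios: the median region held 27 reads in control 1 and 0 in control 2.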

Other observations

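Beside VGAATAW, a second word recurred in the bound regions of the ABA genes, most of them not printed above. CAACTTG, whose reverse complement is CAAGTTG, was chosen after the sequences of the ABA genes had been seen, so its count at these genes is a description only. In 300 bp at the region midpoint it was present in 9 of the 30 bound regions beside ABA genes (30.0%) and in 11 of the 104 regions beside them that were not bound (10.6%). Over the whole table, it was present in 12.3% of 4166 bound regions, 6.89% of 17937 regions that were not bound, and 4.34% of windows of the same length centred 2000 bp to the right of the bound regions. At the receptors it was present in 6 of 12 bound regions, beside PYR1, PYL4, PYL5 and PYL6, and elsewhere in 3 of 18, beside NCED2, NCED5 and CYP707A3. The first PYR1 region, which held no VGAATAW site, had 3 copies (chr4:9930429-9930521, plus strand), and the PYL6 downstream region had 5 (chr2:16843546-16843822, minus strand). Both are shown 5′ to 3′ on the strand of the gene, with the word in capitals on either strand.
PYR1: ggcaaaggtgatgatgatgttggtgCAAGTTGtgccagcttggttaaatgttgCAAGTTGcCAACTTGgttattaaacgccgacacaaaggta
PYL6: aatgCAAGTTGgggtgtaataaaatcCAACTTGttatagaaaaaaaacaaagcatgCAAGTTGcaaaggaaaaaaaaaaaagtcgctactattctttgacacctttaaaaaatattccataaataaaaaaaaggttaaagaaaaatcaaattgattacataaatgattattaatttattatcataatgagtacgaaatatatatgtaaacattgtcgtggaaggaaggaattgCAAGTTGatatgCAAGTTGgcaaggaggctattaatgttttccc
The protein that may read this word, if any, was not tested.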
